A study of Mus musculus with 9 samples.

Results

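The 37 genes described here belong to the machinery of the cell cycle and of DNA replication. They were taken by symbol from the deposited count table of 35275 genes, and all 37 were listed in it. They were divided by phase: 13 genes act around S phase, when DNA is copied, and 21 act in mitosis, when chromosomes are separated. The other 3, Ccnd1, Hmgb2 and Stmn1, were kept apart because their roles are not limited to either phase. The count filter was passed by 34 of the 37, and Cdk1, Bub1 and Cenpe fell below it.

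The muscle sequenced was the gastrocnemius, a mostly fast-fibred calf muscle, of female NSG mice aged 12 weeks whose genotype is labelled wild type, and the libraries were made from poly-A RNA. NSG mice are an immunodeficient strain without mature lymphocytes. All mice had received 10 tail-vein injections of extracellular vesicles (EVs, membrane-bound particles shed by cells), 2 per week for 5 weeks at about 10 µg each, and the muscle was taken 2 days after the last one. In 5 libraries, named MDA-MB-231 EV, the vesicles came from the human breast cancer line MDA-MB-231. In 4 libraries, named MCF-10A EV, they came from MCF-10A, a line of human breast epithelium that forms no tumours. No mice without EVs were analysed here, so which kind of EV a difference belongs to cannot be told apart. Each numbered replicate was taken as 1 mouse. The labels do not state this, and the p-values measure the spread between these libraries.

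A dividing cell switches its cell cycle genes on in waves. Passage out of G1 is driven by D-type and E-type cyclins and by release of E2F transcription factors, which turn on genes for nucleotide supply and for the replication machinery. A later wave of mitotic genes builds the spindle, the kinetochores and the spindle checkpoint, and most of its products are destroyed as the cell leaves mitosis. Adult muscle fibres have left the cell cycle for good, so in this tissue such transcripts are usually read as a sign of dividing mononuclear cells such as satellite cells (the muscle stem cells), fibroblasts, endothelium or immune cells. Several replication genes also serve DNA repair and nucleotide supply in cells that do not divide.

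Library totals ranged from 19463570 to 24158088 counts in MDA-MB-231 EV and from 13943465 to 25195826 in MCF-10A EV, and MCF-10A EV replicate 2 was the shallowest. Of the 13901 genes tested with edgeR's quasi-likelihood test, 0 passed in either direction at an adjusted p under 0.05 (Benjamini-Hochberg). At an unadjusted p under 0.05, 827 genes (5.95%) were higher in MDA-MB-231 EV and 954 (6.86%) were lower. DESeq2 called 57 higher (0.765%) and 171 lower (2.3%) of the 7447 genes to which it gave an adjusted p, and limma voom called 0.

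None of the 34 tested cell cycle genes passed the test, with a smallest adjusted p of 0.260, shared by Rrm2 and Top2a. Most of their fitted changes had 1 sign. Over all 37 genes, fitted with no count filter, 32 had a log2 fold change above 0 (MDA-MB-231 EV relative to MCF-10A EV, here and throughout), with a median of 0.74, against 55.3% above 0 and a median of 0.049 over all 21860 genes with a count. In that fit 16 of the 37 were higher at an unadjusted p under 0.05, against 4.71% of all genes. With the filter, 29 of 34 were above 0 (53.1% of all genes) with a median of 0.64, 12 were higher at an unadjusted p under 0.05 (5.95% of all genes) and 0 were lower. Leaving out MCF-10A EV replicate 4 made that count of 12 a count of 7. Leaving out both libraries that hold granulocyte precursor transcripts, MDA-MB-231 EV replicate 2 and MCF-10A EV replicate 3, also made it 7. Of the tested genes, 9 reached the filter level of 0.502 CPM (counts scaled to an equal library total) in at most 1 MCF-10A EV library, so those entered the test because of the group in which they were higher. All 9 are mitotic genes (Top2a, Bub1b, Kif11, Ccna2, Ccnb1, Ccnb2, Birc5, Aurkb and Cenpf), and the filtered counts and medians are given as descriptions only. DESeq2 gave an adjusted p to 4 of the 37, of which the smallest was 0.112 for Ccnd1, and called 0. In whole muscle, fewer dividing cells and less RNA per dividing cell cannot be told apart.

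**Figure D1:**
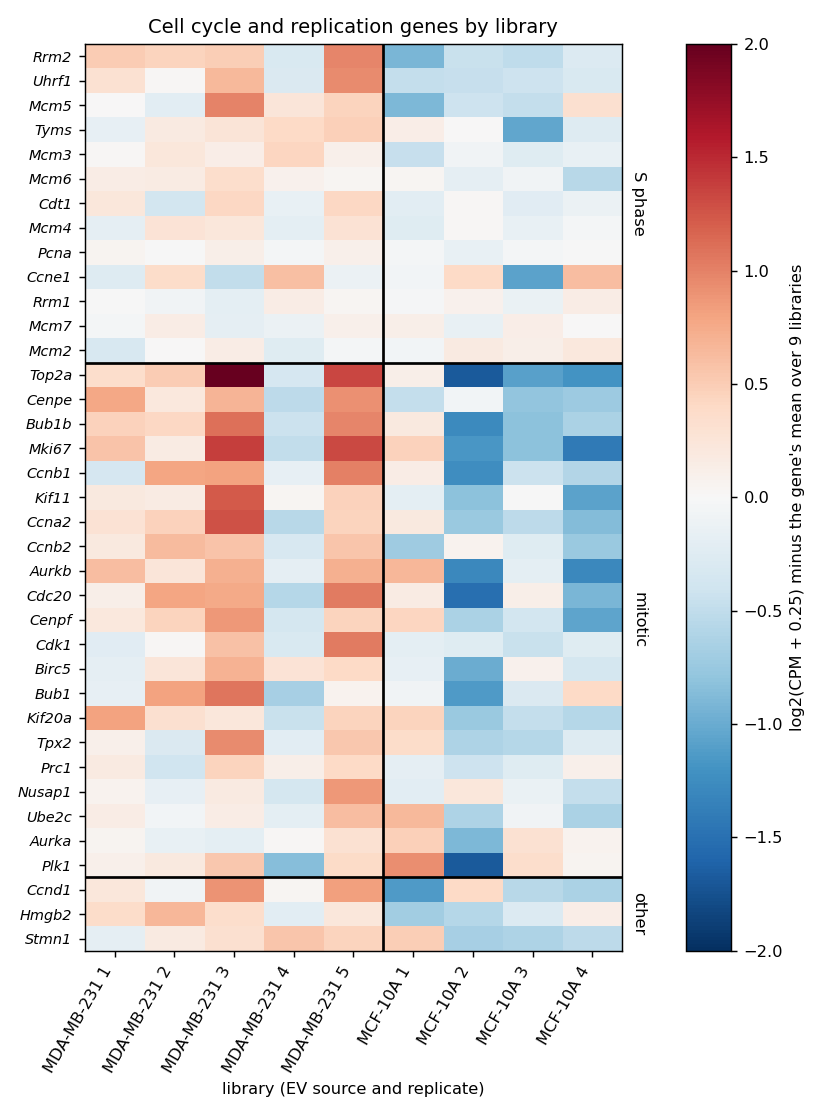
Level of each of the 37 genes in each library as log2(CPM + 0.25) minus the gene's mean over the 9 libraries, clipped at 2, with MDA-MB-231 EV libraries on the left and MCF-10A EV libraries on the right. In the mitotic block MDA-MB-231 EV replicates 3 and 5 are mostly above the mean and MCF-10A EV replicates 2 and 4 mostly below it, and the S phase block is paler.

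The fitted changes of the mitotic genes had a higher median than those of the S phase genes, a difference that was not tested. All 21 mitotic genes had a count, 19 were above 0 in the fit without a filter, and their median log2 fold change there was 1.08. The 13 S phase genes had a median of 0.36 in the same fit, with 10 above 0. With the filter the mitotic median over 18 tested genes was 1.08, which cannot serve as support, since 9 of the 18 passed through the group in which they were higher. It was 0.58 when a gene needed at least 1 CPM in 4 libraries, against 0.36 for the S phase genes. On a scale of log2(FPKM + 1), which shrinks the change of low genes, the mitotic median was 0.21. The S phase median there was also 0.21, and that of all genes tested was 0.099. FPKM are fragments counted per length of the gene and depth of the library. The summed level of the mitotic genes, by replicate number, was 27.2, 25.7, 40.3, 19.2 and 39.8 CPM in MDA-MB-231 EV, against 28.6, 11.9, 19.9 and 16.4 CPM in MCF-10A EV. The groups overlapped, because MDA-MB-231 EV replicate 4 lay below MCF-10A EV replicates 1 and 3. The summed level of the S phase genes was 89.2 ± 3.63 CPM in MDA-MB-231 EV (SD, n = 5) and 82.9 ± 3.41 CPM in MCF-10A EV (SD, n = 4), and these groups overlapped as well. Summed over all 37 genes, the level was between 129 and 166 CPM in MDA-MB-231 EV and between 114 and 124 CPM in MCF-10A EV, with no overlap. Ccnd1, Hmgb2 and Stmn1 alone summed to between 22.2 and 32.3 CPM in MDA-MB-231 EV and between 14.2 and 20.0 CPM in MCF-10A EV. The sum of these 3 genes did not overlap either, unlike the S phase and mitotic sums. Of the 13901 genes tested, taken singly, 2.22% had every MDA-MB-231 EV library above every MCF-10A EV library and 3.17% had every one below. For 3 cell cycle genes, Uhrf1, Mcm3 and Kif11, every MDA-MB-231 EV library was the higher, and for 0 it was the lower.

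**Figure D2:**
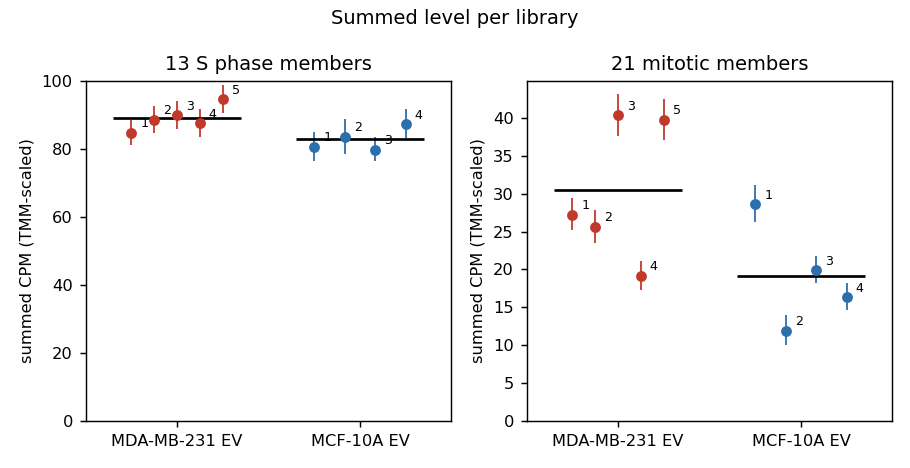
Summed CPM (scaled by TMM) of the 13 S phase genes and of the 21 mitotic genes in each library, labelled by replicate number, with the 95% Poisson interval of the summed count as a vertical line and the group mean as a horizontal line. The S phase sums lie between 84.9 and 94.8 CPM in MDA-MB-231 EV and between 79.9 and 87.5 CPM in MCF-10A EV, while the mitotic sums spread from 19.2 to 40.3 CPM and from 11.9 to 28.6 CPM.

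Mitotic and replication genes carry different promoter elements, and the windows of the leading genes are shown because they set the lists apart by a property that the count table does not hold. The cell cycle genes homology region (CHR, searched as TTTGAA or TTCGAA) is known as a docking site of the DREAM complex in promoters of late cell cycle genes, the CCAAT box binds NF-Y, and E2F sites were searched as TTCCCGC or TTGGCGC. All were searched on both strands from 250 bases before to 50 after each start in RefSeq's table for GRCm38.p6. TTCGAA reads the same on both strands and was counted once per position. CCAAT can overlap its own complement, and such overlapping matches were listed separately. The shares below are of windows with any match. A window was found for 30 of the 37 genes. A CHR was in 77.8% of the mitotic windows (18 windows of 17 genes) and in 14.3% of the S phase windows (14 windows of 12 genes), against 19.2% of all 32851 windows. An E2F match was in 16.7% of the mitotic and 57.1% of the S phase windows, against 6.81% of all. CCAAT was in 88.9% and 78.6%, against 37.4% of all. The 250 bases before the start are printed below, 5′ to 3′ on the gene's strand, with matches in capitals, for the 2 genes of the smallest p in each list. The coordinates in build GRCm38.p6 are chr11:99024190-99024439 (minus strand) for Top2a, chr2:118597961-118598210 (plus strand) for Bub1b, chr12:24708004-24708253 (plus strand) for Rrm2 and chr17:56303087-56303336 (plus strand) for 1 of the RefSeq starts of Uhrf1.
Top2a: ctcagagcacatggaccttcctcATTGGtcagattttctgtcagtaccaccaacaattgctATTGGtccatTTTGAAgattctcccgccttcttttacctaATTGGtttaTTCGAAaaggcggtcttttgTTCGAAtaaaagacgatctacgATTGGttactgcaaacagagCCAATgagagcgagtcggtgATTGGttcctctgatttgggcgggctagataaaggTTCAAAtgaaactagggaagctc
Bub1b: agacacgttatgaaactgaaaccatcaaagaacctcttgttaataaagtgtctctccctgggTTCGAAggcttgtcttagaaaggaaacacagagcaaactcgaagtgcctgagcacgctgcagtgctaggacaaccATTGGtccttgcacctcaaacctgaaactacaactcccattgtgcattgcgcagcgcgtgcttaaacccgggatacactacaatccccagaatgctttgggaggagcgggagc
Rrm2: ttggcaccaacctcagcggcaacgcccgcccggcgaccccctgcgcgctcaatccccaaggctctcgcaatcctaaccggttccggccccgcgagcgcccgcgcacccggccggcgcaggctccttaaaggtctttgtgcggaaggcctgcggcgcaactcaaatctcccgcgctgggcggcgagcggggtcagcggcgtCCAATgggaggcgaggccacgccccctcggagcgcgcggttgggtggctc
Uhrf1: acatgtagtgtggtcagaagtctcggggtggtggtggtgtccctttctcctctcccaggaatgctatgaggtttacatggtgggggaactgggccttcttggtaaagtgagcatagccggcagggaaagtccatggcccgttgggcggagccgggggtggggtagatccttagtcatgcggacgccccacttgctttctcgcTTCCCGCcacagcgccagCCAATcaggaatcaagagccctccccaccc
The Top2a window holds CHR matches whose first base is at -179, -140, -120 and -23 from the start, and CCAAT matches from -227 to -58. The Bub1b window has a CHR at -188, a CCAAT at -113 and a further CHR at 41, past the printed bases. The Rrm2 window has a single CCAAT, at -50, and no E2F match. The Uhrf1 window shown has an E2F match at -48 and a CCAAT at -30. It also has a CCAAT at -2 that reaches past the printed bases and a CCAAT at 2 that lies beyond them. The other Uhrf1 window has CCAAT matches at -150 and -107 and no E2F match. A match of letters is a description and no evidence that a factor was bound in these muscles.

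Among genes of chromosome structure, Top2a had the largest fitted change of the 34 tested. It encodes topoisomerase II alpha, which untangles DNA before chromosomes separate, and its gene lies on chromosome 11 from 98992943 to 99024189 on the minus strand of mm10. Top2a had 35, 34, 98, 16 and 65 counts in MDA-MB-231 EV replicates 1 to 5, against 21, 2, 9 and 6 counts in MCF-10A EV replicates 1 to 4. That is 1.41, 1.60, 4.92, 0.777 and 3.03 CPM in MDA-MB-231 EV, against 1.15, 0.155, 0.363 and 0.315 CPM in MCF-10A EV. MDA-MB-231 EV replicate 3 was highest by far, and MCF-10A EV replicate 1 was above MDA-MB-231 EV replicate 4, so the groups overlapped. The log2 fold change was 2.20 ± 0.63 (SE), with an edgeR adjusted p of 0.260. Leaving out MDA-MB-231 EV replicate 3 gave 1.74, and leaving out MCF-10A EV replicate 1 gave 2.97.

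Mki67, the gene of the proliferation marker Ki-67 that coats mitotic chromosomes (chromosome 7, 135689788 to 135716379, minus strand), had 60, 37, 88, 21 and 91 counts in MDA-MB-231 EV and 40, 7, 19 and 8 counts in MCF-10A EV. The levels were 2.42, 1.75, 4.42, 1.02 and 4.24 CPM in MDA-MB-231 EV, against 2.20, 0.544, 0.765 and 0.419 CPM in MCF-10A EV. The order of the libraries was close to that of Top2a, with replicates 3 and 5 of MDA-MB-231 EV on top, and MCF-10A EV replicate 1 was above replicates 2 and 4 of MDA-MB-231 EV. Its log2 fold change was 1.48 ± 0.54, with an edgeR adjusted p of 0.320, and leaving out MCF-10A EV replicate 1 gave 2.22. Hmgb2, a chromatin protein that bends DNA and is abundant in dividing cells, had 6.49, 8.02, 6.43, 4.27 and 5.87 CPM in MDA-MB-231 EV, against 2.97, 3.26, 4.07 and 5.50 CPM in MCF-10A EV. MDA-MB-231 EV replicate 4 lay below MCF-10A EV replicate 4, and the other libraries were apart. The log2 fold change of Hmgb2 was 0.65 ± 0.22, with an edgeR adjusted p of 0.300.

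**Figure D3:**
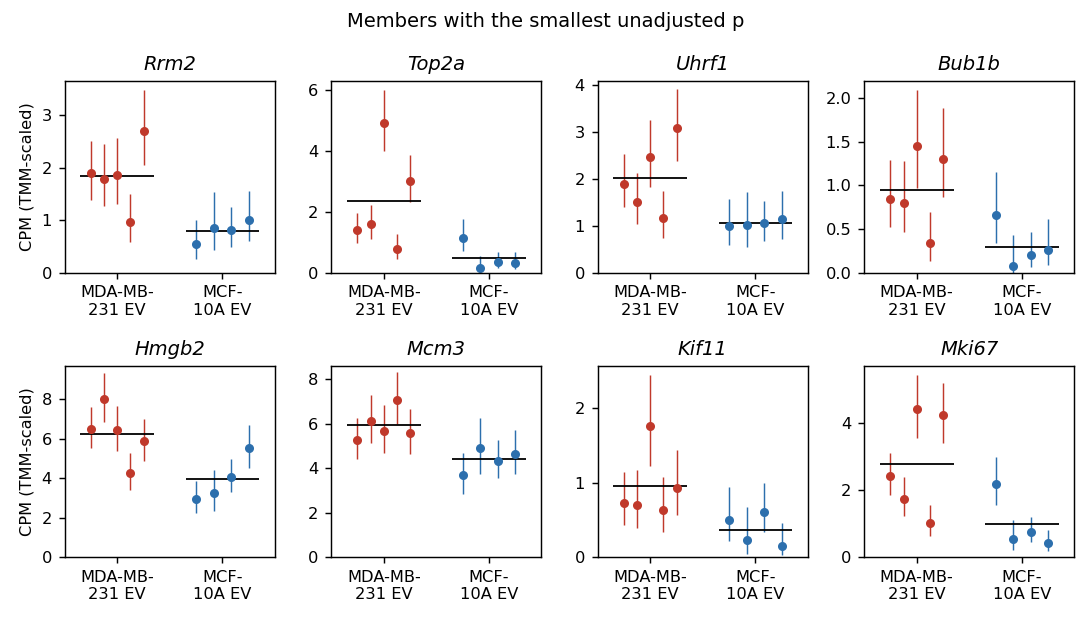
CPM (scaled by TMM) of the 8 cell cycle genes with the smallest unadjusted p, 1 point per library in replicate order, MDA-MB-231 EV on the left and MCF-10A EV on the right of each panel, with 95% Poisson intervals as vertical lines and group means as horizontal lines. Top2a, Bub1b, Kif11 and Mki67 have their highest value in MDA-MB-231 EV replicate 3, and the groups are apart only for Uhrf1, Mcm3 and Kif11.

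Of the spindle checkpoint and of the anaphase-promoting complex, which licenses chromosome separation, 4 genes were followed. Bub1b encodes BubR1, a checkpoint protein that restrains that complex. It had 0.846, 0.802, 1.46, 0.340 and 1.30 CPM in MDA-MB-231 EV, against 0.659, 0.0777, 0.201 and 0.262 CPM in MCF-10A EV. Only MDA-MB-231 EV replicate 4 fell into the range of MCF-10A EV. Bub1b had a log2 fold change of 1.61 ± 0.55, with an edgeR adjusted p of 0.297, and rested on 1 to 12 counts per MCF-10A EV library. Cdc20, an activator of the complex, averaged 1.43 ± 0.65 CPM in MDA-MB-231 EV (SD, n = 5) and 0.643 ± 0.450 CPM in MCF-10A EV (SD, n = 4). The checkpoint kinase gene Bub1 was not tested, with 2 to 18 counts in MDA-MB-231 EV libraries and 0 to 9 in MCF-10A EV libraries. Ube2c, the ubiquitin-conjugating enzyme of the complex, averaged 2.44 ± 0.61 CPM in MDA-MB-231 EV and 2.05 ± 1.04 CPM in MCF-10A EV (SD). Its level is uncertain, because 1662 bases of it overlap Tnnc2, the fast skeletal troponin C gene, on the opposite strand, and whether the counting used strand is not stated. Tnnc2 had 117 counts in all 9 libraries together, while Tnni2, another fast troponin gene, had between 96937 and 201196 per library.

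Motor proteins and spindle builders made up the largest role, with 8 genes, of which 7 were tested and none passed. Kif11 encodes the kinesin that pushes spindle poles apart, and its gene lies on chromosome 19 from 37376403 to 37421859 on the plus strand. Kif11 had 0.725, 0.708, 1.76, 0.631 and 0.931 CPM in MDA-MB-231 EV, against 0.495, 0.233, 0.604 and 0.157 CPM in MCF-10A EV. The groups were apart by a small margin, between MDA-MB-231 EV replicate 4 and MCF-10A EV replicate 3. The log2 fold change was 1.28 ± 0.47, with an edgeR adjusted p of 0.320, and leaving out MDA-MB-231 EV replicate 3 gave 0.94. The kinetochore motor gene Cenpe was not tested, with 2 to 15 counts in MDA-MB-231 EV libraries and 1 to 3 in MCF-10A EV libraries. Fold changes of the kinetochore gene Cenpf, of Kif20a (a kinesin of cytokinesis) and of the spindle assembly factor Tpx2 were 1.07, 0.74 and 0.57. Those of Prc1 and Nusap1, which bundle microtubules, were 0.38 and 0.37, and that of Stmn1, which destabilizes them, was 0.54, with SEs between 0.23 and 0.58 over these 6 genes. Kif20a shares 2315 bases with Cdc23, and Prc1 shares 1889 bases with a long noncoding RNA, on the opposite strand in each case.

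Mitotic kinases and their partners gave fold changes of either sign. Aurka, the centrosomal Aurora kinase, was the most abundant mitotic gene, with a mean of 2.87 FPKM over the 9 libraries. It had 5.48, 4.76, 4.57, 5.34 and 6.57 CPM in MDA-MB-231 EV, against 7.47, 2.72, 6.61 and 5.56 CPM in MCF-10A EV. Its lowest and highest values were both in MCF-10A EV, and its log2 fold change was -0.079 ± 0.240, a sign that was positive with unscaled library sizes and on both FPKM scales. Plk1, a kinase of mitotic entry and spindle assembly, had 4 to 18 counts in MDA-MB-231 EV libraries and 0 to 23 in MCF-10A EV libraries, and a log2 fold change of -0.10 ± 0.61 whose sign also changed between settings. Aurkb and Birc5 (survivin) act together in the chromosomal passenger complex, which corrects wrong attachments of chromosomes to the spindle. Their log2 fold changes were 1.16 ± 0.73 and 0.89 ± 0.46, and Aurkb had 0 counts in MCF-10A EV replicates 2 and 4, where 3 counts would have been 0.233 and 0.157 CPM.

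Of 6 cyclin and CDK genes 5 were tested and none passed. Ccnd1 encodes cyclin D1, which couples growth signals to exit from G1 and is made in many cells outside mitosis. Its gene lies on chromosome 7 from 144929931 to 144939869 on the minus strand and shares 818 bases with Oraov1 on the opposite strand. Ccnd1 had 12.2, 9.81, 19.6, 10.6 and 18.5 CPM in MDA-MB-231 EV, against 4.56, 13.8, 7.01 and 6.61 CPM in MCF-10A EV. MCF-10A EV replicate 2 lay inside the range of MDA-MB-231 EV, and the other MCF-10A EV libraries lay below it. The log2 fold change was 0.84 ± 0.32, with an edgeR adjusted p of 0.326, and leaving out MCF-10A EV replicate 2 gave 1.22. The S phase and mitotic cyclin genes Ccna2, Ccnb1 and Ccnb2 had log2 fold changes of 1.22 ± 0.49, 1.36 ± 0.54 and 1.19 ± 0.46, from 6 to 40 counts in MDA-MB-231 EV libraries and 1 to 15 in MCF-10A EV libraries. Their partner Cdk1, the kinase that drives mitotic entry, was not tested, with 6 to 24 counts in MDA-MB-231 EV libraries and 4 to 6 in MCF-10A EV libraries. Ccna2 shares 864 bases with Exosc9 on the opposite strand. Ccne1, the E-type cyclin of S phase entry, had 6 to 19 counts in MDA-MB-231 EV libraries and 3 to 18 in MCF-10A EV libraries, and a log2 fold change of 0.013 ± 0.522 that was below 0 in DESeq2.

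**Figure D4:**
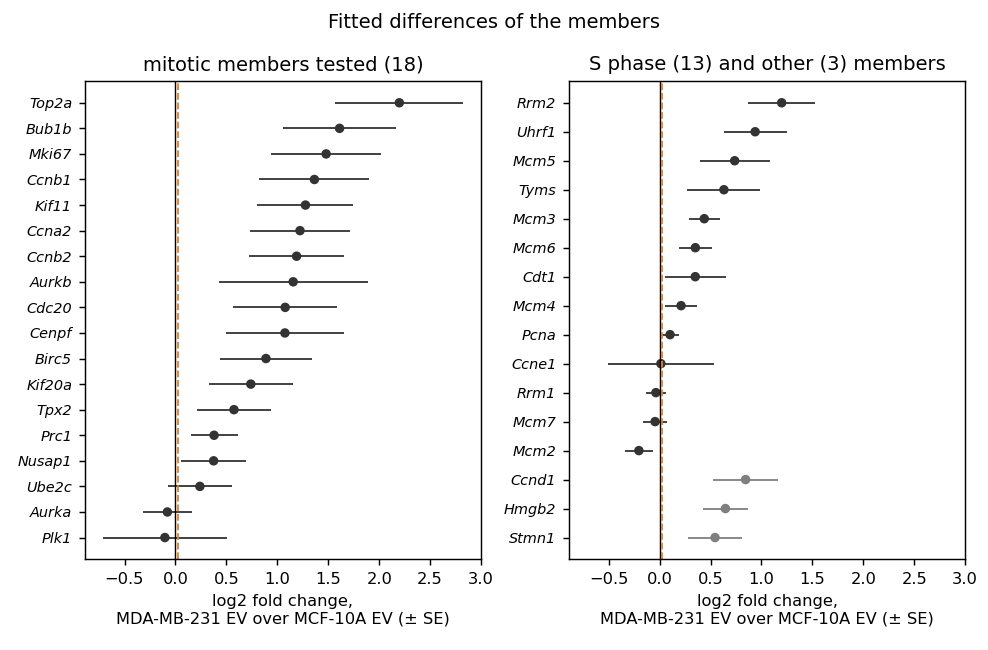
Fitted log2 fold changes (MDA-MB-231 EV relative to MCF-10A EV, edgeR) with standard errors for the 18 mitotic genes tested (left) and for the 13 S phase and 3 other genes (right), with the median of all genes tested as a dashed line. Most mitotic genes lie to the right of both lines, from 2.20 for Top2a to -0.10 for Plk1. Of the 18, 9 passed the filter through the group in which they were higher. The S phase genes Pcna, Rrm1 and Mcm7 lie near 0, as does Aurka, the most abundant mitotic gene, while Mcm3 lies at 0.44.

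Nucleotide supply and chromatin genes held the largest changes among the S phase genes. Rrm2 is the regulated subunit of ribonucleotide reductase, the enzyme that makes deoxynucleotides, and its gene lies on chromosome 12 from 24708241 to 24714146 on the plus strand. Rrm2 had 1.89, 1.79, 1.86, 0.971 and 2.70 CPM in MDA-MB-231 EV, against 0.550, 0.855, 0.806 and 0.996 CPM in MCF-10A EV. MDA-MB-231 EV replicate 4 fell just below the highest MCF-10A EV library, and the others were clearly above it. Rrm2 had the smallest p of the 37 genes (unadjusted p = 0.00313, edgeR), its log2 fold change was 1.20 ± 0.33 at an adjusted p of 0.260, and leaving out any library gave between 1.03 and 1.36. Its partner subunit Rrm1 averaged 27.6 ± 2.4 CPM in MDA-MB-231 EV (SD, n = 5) and 28.3 ± 2.4 CPM in MCF-10A EV (SD, n = 4), and its log2 fold change was -0.037 ± 0.0997, above 0 with unscaled library sizes. Per length, Rrm1 averaged 6.997 FPKM over the 9 libraries and Rrm2 0.642 FPKM. Tyms, the thymidylate synthase gene, had a log2 fold change of 0.63 ± 0.36.

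Uhrf1 encodes the protein that brings DNA methylation to newly copied strands. It had 1.89, 1.51, 2.46, 1.16 and 3.07 CPM in MDA-MB-231 EV, against 0.989, 1.01, 1.05 and 1.15 CPM in MCF-10A EV. All MDA-MB-231 EV libraries were above all MCF-10A EV libraries, by a narrow margin at MDA-MB-231 EV replicate 4. The log2 fold change was 0.94 ± 0.31, with an edgeR adjusted p of 0.292. Pcna, the sliding clamp of DNA polymerases, was the most abundant of the 37 genes, with a mean of 10.8 FPKM over the 9 libraries. Pcna had 16.9, 16.3, 17.6, 15.8 and 17.5 CPM in MDA-MB-231 EV, against 15.9, 14.7, 15.8 and 16.2 CPM in MCF-10A EV. The ranges overlapped, and its log2 fold change of 0.10 ± 0.089 had the smallest standard error of the 34 tested genes. A Pcna copy in the table, Pcna-ps2, had 478 counts over the 9 libraries, so some reads of Pcna may have been counted there or lost. Cdt1, which loads the replicative helicase, had a log2 fold change of 0.35 ± 0.30. Its level is uncertain, because it shares 5114 bases with Gm20388 on the same strand. Gm20388 had 0 counts over the 9 libraries, and whether reads of Cdt1 were lost to this overlap was not tested.

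The replicative helicase is a ring of the 6 proteins encoded by Mcm2 to Mcm7, and none of its genes passed the test. Mcm3 had 5.28, 6.13, 5.68, 7.09 and 5.59 CPM in MDA-MB-231 EV, against 3.68, 4.89, 4.35 and 4.67 CPM in MCF-10A EV, without overlap. Its highest value was in MDA-MB-231 EV replicate 4, the library in which Top2a, Mki67 and Kif11 were lowest within that group. The log2 fold change of Mcm3 was 0.44 ± 0.15, with an edgeR adjusted p of 0.301. Those of Mcm5, Mcm6 and Mcm4 were 0.74 ± 0.34, 0.35 ± 0.16 and 0.21 ± 0.16. Mcm7 and Mcm2 had -0.044 ± 0.117 and -0.20 ± 0.14, and Mcm2 averaged 7.18 ± 0.99 CPM in MDA-MB-231 EV and 8.26 ± 0.68 CPM in MCF-10A EV (SD). Mcm7 overlaps Ap4m1 and Cops6 on the opposite strand, and its sign was positive with unscaled library sizes.

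The ratio of the mitotic to the S phase sum was 32.1%, 28.9%, 44.8%, 21.9% and 42.0% in MDA-MB-231 EV replicates 1 to 5, against 35.5%, 14.2%, 24.9% and 18.7% in MCF-10A EV replicates 1 to 4. It averaged 33.9 ± 9.5% in MDA-MB-231 EV (SD, n = 5) and 23.3 ± 9.2% in MCF-10A EV (SD, n = 4), with overlap. Aurka and Ube2c alone made up 27.1% of the mitotic sum in MDA-MB-231 EV and 39.5% in MCF-10A EV on average, and without them the ratio was 25.2 ± 9.1% in MDA-MB-231 EV and 14.04 ± 5.57% in MCF-10A EV. The same libraries recurred at the ends of the range. MDA-MB-231 EV replicate 3 was the highest of the 9 libraries for 11 of the 21 mitotic genes and replicate 5 for 5. Their shares of all genes tested were 7.67% and 7.79%. Each was also the highest for 4 of the 13 S phase genes. MCF-10A EV replicate 2 was the lowest for 12 mitotic genes and replicate 4, the lowest for 9.86% of all genes tested, for 7. Over all genes tested, MCF-10A EV replicate 2, the shallowest library, was also at the extremes most often, being the highest for 25.6% and the lowest for 27.0%. Per length the mitotic genes were scarce, and 19 of 21 averaged under 1 FPKM, as did 6 of 13 S phase genes. Of the 37 genes in each library, 18 of 185 values in MDA-MB-231 EV and 49 of 148 in MCF-10A EV rested on fewer than 10 counts, and 4 of these, all in MCF-10A EV, were 0.

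Further genes of the same pathways were taken from 4 lists. Among 50 other mitotic genes, 26 were tested and 0 passed. In the fit without a filter 47 of the 50 were above 0, with a median log2 fold change of 0.78. With the filter the median was 0.48 and 7 were higher at an unadjusted p under 0.05, against 5.95% of all genes. The filtered values are descriptions only, because genes can pass the filter through the group in which they are higher. Their summed level was between 59.3 and 83.8 CPM in MDA-MB-231 EV and between 51.4 and 55.2 CPM in MCF-10A EV, without overlap, and MDA-MB-231 EV replicates 3 and 5 were again the 2 highest. Of the 26 tested, the groups were apart for 2, both higher in MDA-MB-231 EV, against 2.22% of all genes tested. Cenpa, the histone variant that marks centromeres, had 2.30, 2.45, 1.61, 2.04 and 2.89 CPM in MDA-MB-231 EV, against 0.714, 1.17, 1.05 and 0.944 CPM in MCF-10A EV, and a log2 fold change of 1.22 ± 0.26 with an edgeR adjusted p of 0.247. Kifc1, a minus-end kinesin that focuses spindle poles, had a log2 fold change of 1.59 ± 0.56. It had 0 to 7 counts in MCF-10A EV libraries, all below the filter level, so it passed through MDA-MB-231 EV.

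Among 49 other replication genes, 38 were tested and 0 passed, with a median log2 fold change of 0.10 and 23 above 0, against 53.1% of all genes. In the fit without a filter 32 of the 49 were above 0, with a median of 0.21, against 55.3% and 0.049 over all genes. Their summed level was 307 ± 15.5 CPM in MDA-MB-231 EV and 322 ± 22.7 CPM in MCF-10A EV (SD). Gins4, a subunit of the GINS complex of the replication fork, had a log2 fold change of -0.26 ± 0.09, and the fork protection gene Timeless one of 0.51 ± 0.18. Of 15 genes of the G1 cyclins, their kinases and the RB-E2F system, 14 were tested, 0 passed and the median was 0.19. The 2 with the smallest p were both lower in MDA-MB-231 EV: E2f4, an E2F of repressor complexes, at -0.44 ± 0.13, and Tfdp1, the dimer partner of E2F proteins, at -0.35 ± 0.12, with edgeR adjusted p of 0.260 and 0.294. Of 12 CDK inhibitor and growth arrest genes, 11 were tested, 0 passed and the median was 0.054. Ccng1, a p53 target gene, had the smallest p, with a log2 fold change of -0.37 ± 0.16, and the CDK4 and CDK6 inhibitor gene Cdkn2d had 0.25 ± 0.15.

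The cells that could carry these transcripts were followed through marker lists, and no list had a gene past edgeR's threshold. DESeq2 called 5 genes of these lists, Pecam1 of the endothelium and Mfap4 and Lum of the fibroblasts as higher, and Myh4 and Actn3 of the myofibres as lower. The myofibre genes that define the tissue summed to between 128573 and 155538 CPM in MDA-MB-231 EV and between 171889 and 219489 CPM in MCF-10A EV. The levels of all other cells are relative to TMM-scaled totals, and the part of the lower fibre level in them was not tested. Of the 10 myofibre genes 9 were below 0, with a median log2 fold change of -0.22. Myh4, the fastest myosin heavy chain, had -0.73 ± 0.17 and the fast-fibre actinin gene Actn3 -0.64 ± 0.19. All 12 genes of fibroblasts and fibro-adipogenic progenitors were above 0, with a median of 0.36, as were 10 of 12 endothelial genes, with a median of 0.38, and all 6 tested of 8 mast cell genes, with a median of 1.03. Fibroblast genes summed to between 4341 and 8003 CPM in MDA-MB-231 EV and between 2779 and 6874 CPM in MCF-10A EV. Endothelial genes summed to between 497 and 680 CPM in MDA-MB-231 EV and between 412 and 513 CPM in MCF-10A EV. Mast cell genes summed to between 31.4 and 91.8 CPM in MDA-MB-231 EV and between 13.8 and 36.4 CPM in MCF-10A EV. The macrophage list summed to between 217 and 246 CPM in MDA-MB-231 EV and between 126 and 299 CPM in MCF-10A EV. Its highest and lowest MCF-10A EV libraries, replicates 1 and 2, were also the highest and lowest of that group for the mitotic sum. In MDA-MB-231 EV replicate 3 was the highest for both sums, but replicate 5, the lowest for macrophages, had a mitotic sum of 39.8 CPM. Schwann cell genes were above 0 in 9 of 10, with a median of 0.46, and all 8 adipocyte genes were above 0, with a median of 0.48. Of 11 erythroid genes 6 were tested, and 5 of these were below 0, with a median of -0.33. The part of these cell types in the levels of the cell cycle genes was not tested.

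The 2 genes of the smallest p in each of these lists had the following log2 fold changes. In the endothelium the adhesion gene Pecam1 had 0.36 ± 0.10 and the clotting factor gene Vwf 0.60 ± 0.17. In fibroblasts the microfibril gene Mfap4 had 1.27 ± 0.28 and the proteoglycan gene Lum 0.52 ± 0.14. In mast cells the receptor gene Kit had 0.77 ± 0.22 and the carboxypeptidase gene Cpa3 0.77 ± 0.26, and the groups overlapped for both. In macrophages Cd74, the invariant chain of antigen presentation, had 0.36 ± 0.17 and the lysosomal marker Cd68 0.42 ± 0.32. In Schwann cells S100b had 0.57 ± 0.27 and the myelin gene Pmp22 0.63 ± 0.32, and in adipocytes the lipid carrier gene Fabp4 had 0.40 ± 0.26 and the regulator gene Pparg 0.42 ± 0.34. The iron uptake receptor gene Tfrc had -0.44 ± 0.24 and the globin gene Hbb-bt -0.49 ± 0.44. Of the lymphocyte list only Cd4, which other cells also express, was tested, with -0.63 ± 0.50, and of the neutrophil list only the receptor gene Csf3r, with -0.040 ± 0.430. The islet genes Chga and Chgb had 0.84 ± 0.64 and 0.44 ± 0.37.

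Of 12 satellite cell and myoblast genes, 10 were tested, 8 were above 0 and the median log2 fold change was 0.15. Their summed level was between 3840 and 4760 CPM in MDA-MB-231 EV and between 4380 and 6472 CPM in MCF-10A EV. Nearly all of it was Des, the desmin gene, which mature fibres express too, at a mean of 4171 CPM in MDA-MB-231 EV and 5214 CPM in MCF-10A EV. The acetylcholine receptor subunit gene Chrnd had 0.67 ± 0.17 with the groups apart, and Tmem8c, the deposited name of the myoblast fusion gene Mymk, had 1.35 ± 0.43, with edgeR adjusted p of 0.252 and 0.292. Pax7, which marks satellite cells, had 3.63, 3.68, 3.32, 1.21 and 2.89 CPM in MDA-MB-231 EV, against 2.42, 2.95, 2.58 and 2.94 CPM in MCF-10A EV. MDA-MB-231 EV replicate 4, the lowest library of its group for the mitotic sum, was the lowest of all 9 for Pax7. The rest of that group shared no order, with Pax7 highest in replicate 2 and the mitotic sum highest in replicate 3. In MCF-10A EV replicate 1 had the highest mitotic sum and the lowest Pax7, and replicate 2 the lowest mitotic sum and the highest Pax7. The Pax7 values of MCF-10A EV lie close together and rest on 38 to 64 counts, so their order is uncertain. Lymphocyte genes summed to at most 0.927 CPM in MDA-MB-231 EV and 1.26 CPM in MCF-10A EV, with 0 counts of Ncr1 and Trbc1 in every library.

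Granulocyte precursor genes stood out in a single library of each group. Mpo, the myeloperoxidase gene, had 165 counts in MDA-MB-231 EV replicate 2 and 0 to 3 in its other libraries, against 59 counts in MCF-10A EV replicate 3 and 0 in its other libraries. Elane, the neutrophil elastase gene, had 106 counts in MDA-MB-231 EV replicate 2 and at most 1 in its other libraries, against 43 counts in MCF-10A EV replicate 3 and at most 2 in its other libraries. The list of 12 genes summed to 40.9 CPM in MDA-MB-231 EV replicate 2 and 16.3 CPM in MCF-10A EV replicate 3, and to at most 2.01 CPM elsewhere. The part of these cells in the levels of the cell cycle genes was not tested. Without both libraries the median log2 fold change was 1.19 for the mitotic genes and 0.37 for the S phase genes. Top2a then had 2.16 and Rrm2 1.22. Transcripts of pancreatic islets (Ins2 above 10 CPM) were in MDA-MB-231 EV replicates 1, 3 and 4 and in MCF-10A EV replicates 2 and 3, and with their presence as a covariate the mitotic median was 1.10. The mitotic medians of this paragraph are over the 18 tested genes. Of these, 9 passed the filter through the group in which they were higher, so these medians are descriptions only.

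**Figure D5:**
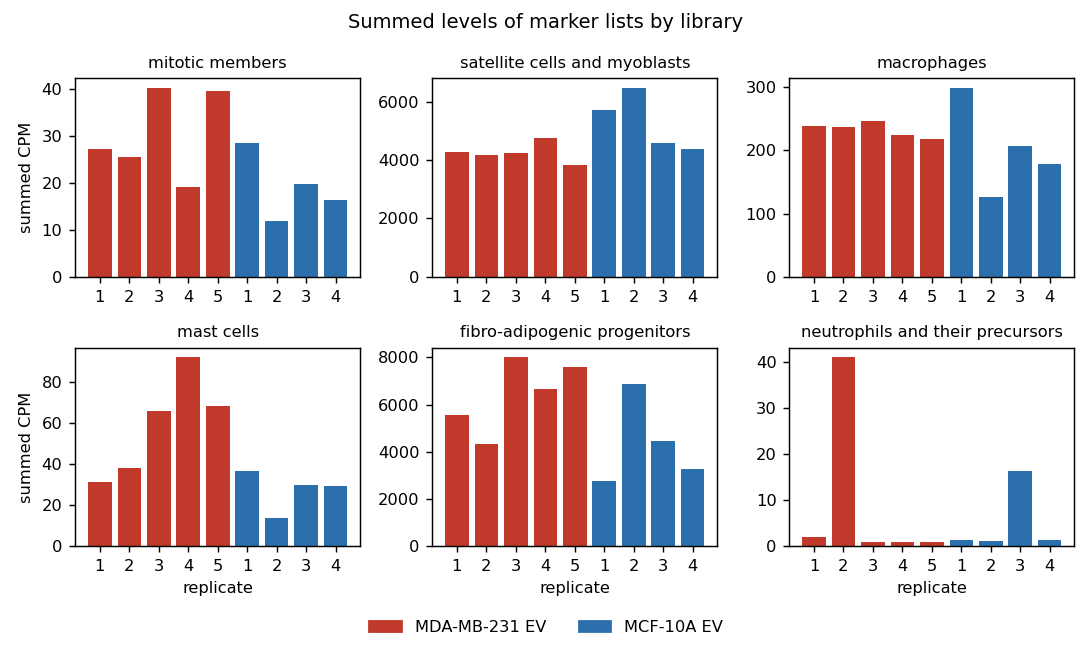
Summed CPM of the mitotic genes and of 5 cell type marker lists in each library, with MDA-MB-231 EV replicates 1 to 5 on the left and MCF-10A EV replicates 1 to 4 on the right of each panel. Neutrophil and precursor genes are high only in MDA-MB-231 EV replicate 2 (40.9 CPM) and MCF-10A EV replicate 3 (16.3 CPM). The mitotic sums of these libraries are 25.7 and 19.9 CPM.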

How the data were processed

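Per the labels' protocols, Trizol RNA of about 20 mg of muscle went into poly-A libraries at Novogene. The authors deposited counts, 1 whole number per gene and library, on mm10. The FPKM values deposited by the authors equal the count divided by gene length and library sum within 0.1% for 100% of 161066 values. STAR 2.5 and HTSeq 0.6.1, with TopHat, edgeR and DESeq2, are listed with no roles, per the submitters' processing notes. The annotation release and the use of strand are not given in the sources used here. From the gene ID, 27 symbols damaged by a spreadsheet were restored.

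Counts of all 9 libraries were tested with edgeR 4.0.16 (quasi-likelihood F test, robust, TMM scaling, filterByExpr with a minimum count of 10 and total of 15, two-sided) in R 4.3.3, with Benjamini-Hochberg adjustment over 13901 genes. CPM use TMM-scaled totals. The biological coefficient of variation was 20.2%. Fold changes are MDA-MB-231 EV relative to MCF-10A EV, with SE. Poisson intervals (95%) and the floor of 3 counts cover counting error only. The statistics were tested on simulated data. The 37 genes, their lists and the alternatives were chosen with earlier results of these data known. Values in every library are given for the 8 genes of the smallest p, the most abundant S phase and mitotic gene, and Mki67, Top2a, Pcna and Ccnd1. Of other lists the 2 genes of the smallest p are named. Values of Pax7, Tnnc2, Tnni2 and the genes not tested were chosen after they were seen. Alternatives were RLE, upper-quartile and unscaled sizes, sizes without the 20 most abundant genes, other filters, DESeq2 1.42.0, limma 3.58.1 (voom, with and without sample weights, and log2 of FPKM plus 1 or 0.1), edgeR without robust dispersion, the replicate number as a block, islet transcripts as a covariate, and leaving out libraries. Leaving out both libraries with granulocyte precursor transcripts was added after seeing the data. Promoter sequences are RefSeq's (GRCm38.p6). Figures used matplotlib 3.10.9 in Python 3.11.15.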

Additional observations from a re-analysis of the deposited data

Results flagged for a closer look

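In 3 of the 82 sets of values that were tested, 1 library lay apart from the other libraries of its group, by the gap to its nearest neighbour as a share of the group's range (Dixon's criterion at 95%). Chance alone flags about 1 set in 20. Kif11, the kinesin of spindle pole separation, was 1.76 CPM in MDA-MB-231 EV replicate 3, while the other MDA-MB-231 EV libraries lay between 0.631 and 0.931 CPM. Kif20a, the kinesin of cytokinesis, was 1.21 CPM in MCF-10A EV replicate 1, while the other MCF-10A EV libraries lay between 0.388 and 0.524 CPM. Stmn1, which destabilizes microtubules, was 7.03 CPM in MCF-10A EV replicate 1, while the other MCF-10A EV libraries lay between 3.03 and 3.36 CPM.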

How the results depend on the processing

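No cell cycle gene passed the adjusted threshold under any of the alternatives run. The count of genes called over the whole table was 228 in DESeq2 and between 0 and 2 when 1 library was left out. The 12 cell cycle genes higher at an unadjusted p under 0.05 became 22 on log2(FPKM + 0.1), 22 on log2(FPKM + 1), 19 with voom and sample weights, 19 with unscaled library sizes, 7 without both libraries with granulocyte precursor transcripts and 7 to 17 when 1 library was left out. On both FPKM scales and with unscaled sizes all genes moved up as well, with 15.9%, 15.8% and 14.6% of them higher at that p for log2(FPKM + 1), log2(FPKM + 0.1) and unscaled sizes. On log2(FPKM + 1) the median log2 fold change was 0.22 for all cell cycle genes, 0.21 for the mitotic and 0.21 for the S phase genes. The S phase median was also 0.23 with the replicate number as a block and 0.48 with unscaled sizes, which raised the median of all genes by over 0.1, to 0.15. When 1 library was left out, the medians lay between 0.54 and 0.75 for all, between 0.79 and 1.28 for the mitotic and between 0.26 and 0.37 for the S phase genes. The tested genes behind these counts and medians include 9 mitotic genes that passed the filter through the group in which they were higher. The values for all and for the mitotic genes are therefore descriptions only. Same-numbered libraries correlated at -0.30, -0.18, 0.038 and 0.080 in their deviations from the group means. Libraries of different number correlated at between -0.22 and 0.27. So few pairs cannot show whether the replicate numbers pair the libraries. With the block 8 cell cycle genes were higher at an unadjusted p under 0.05 and 0 were called. Genes near 0 changed sign. Aurka was 0.15 on log2(FPKM + 0.1), 0.092 on log2(FPKM + 1), 0.054 with unscaled sizes, 0.057 without the granulocyte libraries, and between -0.29 and 0.083 when 1 library was left out. Ccne1 was -0.017 in DESeq2, -0.48 without the granulocyte libraries, and between -0.37 and 0.40 when 1 library was left out. Mcm7 was 0.091 on log2(FPKM + 0.1), 0.073 on log2(FPKM + 1) and 0.090 with unscaled sizes. Plk1 was 0.00396 with the islet covariate, 0.26 and 0.031 on log2(FPKM + 0.1) and log2(FPKM + 1), 0.35 in voom, 0.030 with unscaled sizes, and between -0.45 and 0.36 when 1 library was left out. Rrm1 was 0.096 and 0.086 on the same FPKM scales, 0.099 with unscaled sizes, and between -0.086 and 0.0089 when 1 library was left out. Among marker genes, Csf3r and Hbb-bt changed sign too. Csf3r was 0.00837 on log2(FPKM + 1), 0.093 with unscaled sizes, 0.067 without MCF-10A EV replicates 1 and 2, and between -0.27 and 0.19 when 1 library was left out. Hbb-bt was 0.14 with voom and sample weights, 0.46 without MCF-10A EV replicates 1 and 2, and between -0.72 and 0.18 when 1 library was left out. The cause of these changes was not tested. For named genes, 1545 values under alternatives kept their direction and side of the threshold, 36 changed sign and 5 passed the threshold in DESeq2. Counts under 10 limit the mitotic genes most.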
